A study of Homo sapiens with 4 samples.

Results

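The genes described here are 41 genes of the lysosome, its proton pump and autophagy, taken from a list by function. That list was chosen with earlier results of these data known. The genes comprise 14 of the vacuolar proton pump (V-ATPase) and its accessory proteins and 3 of lysosomal membrane proteins. The others are 13 acid hydrolases or their cofactors, 2 transcription factors and 9 autophagy genes. All 41 symbols were matched to an Ensembl identifier among the 64252 identifiers of the deposited count table. RNA was sequenced from J.gamma1 cells, a line derived from the human T-cell leukaemia line Jurkat that lacks phospholipase C gamma 1. In 2 libraries, named shNC, the cells carried a control short hairpin RNA, and in 2 libraries, named shELOVL5, a hairpin against ELOVL5, an elongase of polyunsaturated fatty acids. The loss of phospholipase C gamma 1 is therefore common to both groups, and the comparison rests on 1 line. Neither the hairpin sequences, any selection of cells nor the source of the replicates was given in the sources used here. All column names of the count table carry the tag D4, which nothing in these sources explains, so the time of harvest is not stated here. The p-values therefore reflect the spread between these libraries alone, which may be technical.

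The V-ATPase moves protons into the lysosome. Its membrane part, V0, holds the ring through which protons pass, and its soluble part, V1, hydrolyses ATP to turn that ring. The acid lumen is what most lysosomal hydrolases need in order to work. In autophagy, a double membrane encloses cytoplasm and fuses with the lysosome, where the same hydrolases degrade the cargo. TFEB and TFE3 are transcription factors that bind short E-box-type elements in promoters of many of these genes, and the kinase mTORC1, itself recruited to the lysosome, keeps them out of the nucleus.

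Levels are given as CPM, counts scaled to library size with the TMM method, and fold changes as log2 of shELOVL5 over shNC with the standard error (SE). A gene is said to rise or fall where the Benjamini-Hochberg adjusted p of edgeR's quasi-likelihood test over 17461 tested genes was under 0.05. Libraries held between 16254002 and 17338719 counts, so that 3 counts corresponded to 0.172 to 0.187 CPM. ELOVL5 itself had 5816 and 5664 counts in shNC and 1255 and 1157 in shELOVL5, a 4.90-fold fall (adjusted p = 1.79e-09). The 8 T cell markers examined were all detected, with summed levels of 1460 and 1467 CPM in shNC and 1493 and 1460 in shELOVL5. Single T cell markers did change, as CD3E (log2 fold change 0.32) and CD3G (0.25) rose and CD3D (-0.26), CD247 (-0.28), LCK (-0.17) and CD1A (-0.85) fell. For the 8 markers of myeloid cells, which are rich in lysosomes, the sum lay between 0.706 and 1.68 CPM, and LYZ, CSF1R, FCGR3A and S100A8 had 0 counts in all libraries. The 5 B cell markers summed to 47.7 and 40.7 CPM in shNC and 29.8 and 26.9 in shELOVL5, nearly all of it CD79A. The 5 erythroid markers summed to 1.65 and 1.68 CPM in shNC and 0.515 and 0.484 in shELOVL5, and the 6 epithelial or fibroblast markers to 11.3 to 12.9 CPM in all libraries. The part of the lower B cell and erythroid sums in the results below was not tested.

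Of the 41 genes, 39 passed the filter on low counts. The filter left out the cysteine proteases CTSL, with 0 counts in every library, and CTSZ, with 3 and 7 counts in shNC and 4 and 2 in shELOVL5. For CTSL a count of 0 allows up to 3 counts in each library, counting error only. Among the 39 tested genes, 12 rose (30.8%), against 9.22% of all tested genes, and 6 fell (15.4%), against 11.2% of all tested genes. These genes are well expressed, and a test has more power at high counts. Among the 8860 tested genes whose mean reached 20 CPM, a level chosen after the results were seen, 14.2% rose and 18.4% fell, and 38 of the 39 lie there with all 12 rises and all 6 falls. In the main fit, the share that rose was thus above the background under both readings, and the share that fell was near it. The median log2 fold change was 0.11 over the 39 genes and 0.01 over all tested genes. The 2 libraries of a group did not overlap those of the other for 33 of the 39 (84.6%), beside 60.1% of all tested genes. Of the 33, 22 were higher in shELOVL5. The share without overlap among genes reaching 20 CPM is not given, so this comparison does not allow for expression level. In bulk RNA, fewer cells of a kind and less RNA per cell cannot be told apart.

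The counts by role rest on few genes each, and 9.22% of all tested genes rose and 11.2% fell. The pump had 6 rises (42.9%) and 3 falls (21.4%) among 14 genes. The membrane proteins had 2 rises (66.7%) among 3, and the hydrolases 4 rises (36.4%) and no fall among 11 tested. The autophagy genes had no rise and 3 falls (33.3%) among 9, and neither transcription factor passed the threshold. Differences between roles were not tested, and the wider list described below did not repeat this pattern in all roles. Its autophagy machinery had 5 rises and 2 falls among 28 genes, and its receptors and ATG8 genes 4 and 2 among 15. Its genes for sugar and lipid breakdown had 4 rises and 5 falls among 28, and its membrane genes 6 and 1 among 24. Leaving out shELOVL5 replicate 1 brought the rises from 12 to 6, while the falls numbered 5 in that fit. Against a fold change of 1.2 in place of 0 change (edgeR's glmTreat), 4 rises and 4 falls passed. The rises were ATP6V0D1, ATP6V1G1, CTSA and TPP1, and the falls ATP6V0B, ATP6V0E1, ATP6V1H and SQSTM1. The share of all tested genes called in either of these fits is not given, so their counts cannot be set beside a background.

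**Figure D1:**
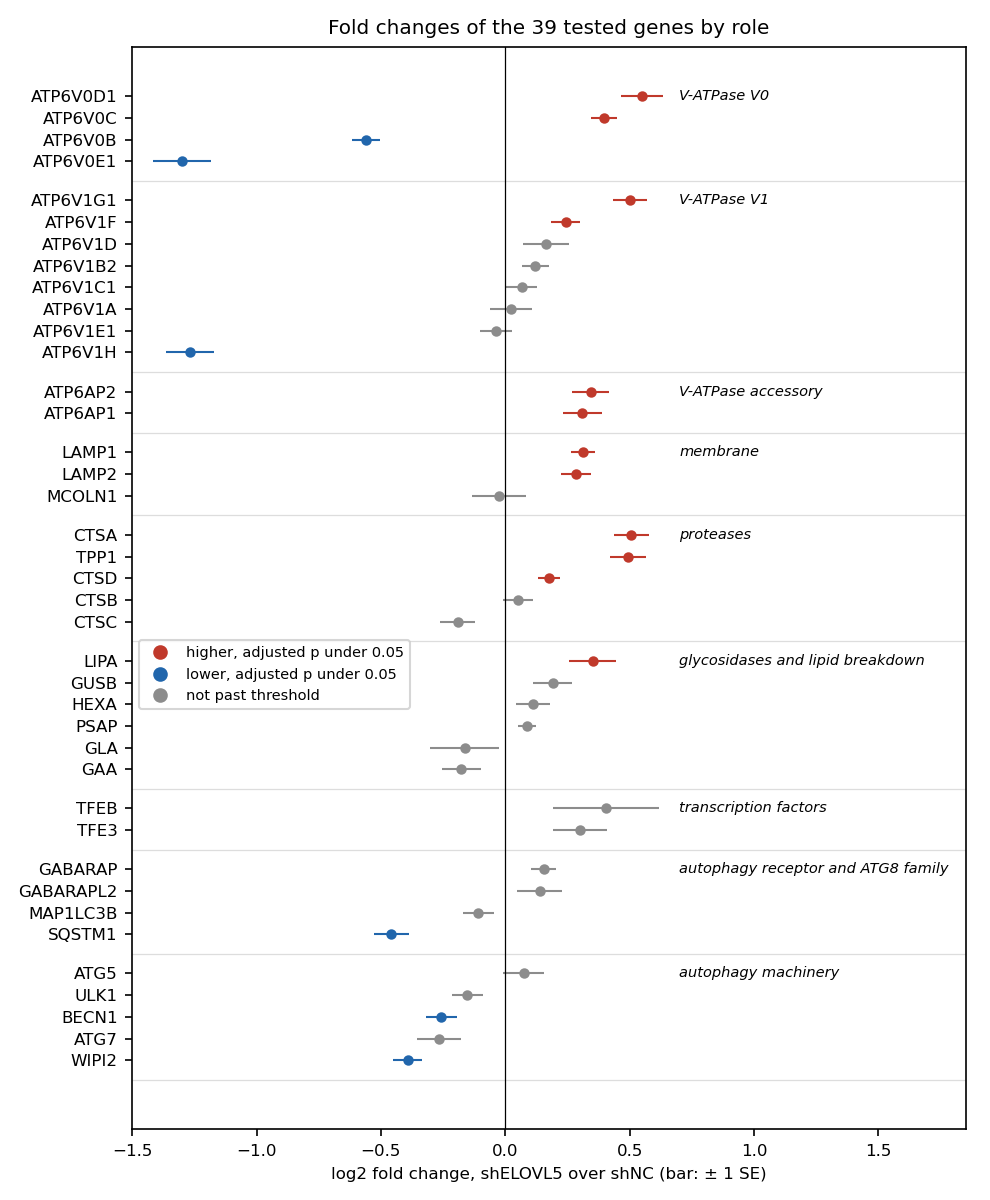
Log2 fold change (shELOVL5 over shNC, horizontal axis) of the 39 tested genes, grouped by role, with bars of 1 SE from the edgeR fit on 2 libraries a group and colour for the direction of genes past an adjusted p of 0.05. ATP6V0E1 at -1.30 and ATP6V1H at -1.27 stand far to the left, and the rises reach no further than 0.55.

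Promoter sequence was examined because TFEB and TFE3 bind the palindrome TCACGTGA, the core of the element described for lysosomal genes, and the shorter E-box core CACGTG, which lies inside it. The search, chosen after the results were seen, covered both strands (each motif reads the same on both) of RefSeq windows on GRCh38.p14 running from 250 bases before to 50 bases after a gene's start, with the first listed window of each gene. Of the 41 genes, 32 had a window. TCACGTGA was found in 6 of these 32 (18.8%) and in 283 of 27305 promoters of all genes (1.04%). Since the element was described for lysosomal genes, a higher share in a list of such genes is built in. It therefore says nothing about the changes in shELOVL5. CACGTG, which includes those, was found in 8 of 32 (25%) and in 2030 of all promoters (7.43%). The stretches that hold the matches are shown because these 8 genes are the ones in which the rises and falls below can be set beside a match. They are written 5′ to 3′ on the strand of the gene, with the matches in capitals.
ATP6V0B (chr1:43974900-43974929, plus strand): ggtCACGTGgtaccggcgcatCACGTGggc
ATP6V0D1 (chr16:67481199-67481228, minus strand): cccccttatggTCACGTGAggcgcttgcgc
ATP6V1G1 (chr9:114587646-114587745, plus strand): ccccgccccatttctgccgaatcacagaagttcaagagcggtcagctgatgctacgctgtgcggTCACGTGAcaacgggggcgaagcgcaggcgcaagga
LAMP1 (chr13:113297037-113297238, plus strand): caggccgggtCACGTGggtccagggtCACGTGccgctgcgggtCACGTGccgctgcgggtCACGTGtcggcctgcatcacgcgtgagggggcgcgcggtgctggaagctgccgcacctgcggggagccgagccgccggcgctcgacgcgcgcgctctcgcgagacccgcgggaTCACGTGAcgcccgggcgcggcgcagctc
MCOLN1 (chr19:7522524-7522623, plus strand): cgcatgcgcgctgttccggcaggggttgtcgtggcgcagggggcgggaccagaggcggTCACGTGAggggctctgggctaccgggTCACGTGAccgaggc
CTSA (chr20:45891290-45891319, plus strand): tgtCACGTGgcgccggagtTCACGTGActc
CTSD (chr11:1763957-1763986, minus strand): gccggccgcgccCACGTGaccggtccgggt
GAA (chr17:80101456-80101556, plus strand): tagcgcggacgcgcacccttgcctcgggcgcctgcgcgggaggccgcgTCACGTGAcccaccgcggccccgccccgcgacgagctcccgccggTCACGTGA

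Counted from the RefSeq start, the TCACGTGA match of ATP6V0D1 begins at position -60 and that of ATP6V1G1 at -59. The LAMP1 window holds 4 CACGTG matches in a row (from -192 to -142), a TCACGTGA at -29 and a further TCACGTGA at -2, across the start and outside the stretch shown. Both matches of MCOLN1 (-42 and -15) and of GAA (-77 and -32) are the longer form. Of the 11 genes that rose and have a window, 4 (36.4%) hold TCACGTGA, namely ATP6V0D1, ATP6V1G1, LAMP1 and CTSA. The share was 18.8% over all 32 listed genes with a window and 13.3% (2 of 15) over those not past the threshold. MCOLN1 and GAA hold a pair each and did not pass the threshold, with log2 fold changes of -0.03 and -0.18. None of the 4 genes that fell and have a window holds TCACGTGA, whereas ATP6V0B, which fell, holds CACGTG at -57 and -39. ATP6V0E1 and ATP6V1H, with the largest falls, have no window. These groups are small, and the difference between them was not tested. A match is only a match of letters. For ATP6V0B and CTSA a protein-coding exon of GENCODE 29 reaches at least 250 bases before the RefSeq start, the furthest examined. Their GENCODE 29 genes begin at 43974487 and 45890144, so the stretches shown for them lie inside the annotated genes. For ATP6V0D1 and CTSD such an exon reaches 80 and 65 bases before it. The matches of these genes may therefore lie in transcribed sequence. The genes without a window in the table used were ATP6V0E1, ATP6V1A, ATP6V1B2, ATP6V1C1, ATP6V1H, LAMP2, CTSB, HEXA and PSAP.

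All 4 listed V0 genes changed, 2 in each direction. ATP6V0C encodes the repeated proteolipid of the proton-carrying ring, and its levels were 178 and 164 CPM in shNC and 224 and 226 in shELOVL5. Both shELOVL5 libraries lay above both shNC libraries (log2 fold change 0.40, SE 0.0521, adjusted p = 0.000452). ATP6V0B encodes a second, less numerous proteolipid of the same ring and moved the other way, from 154 and 164 CPM to 106 and 110. The groups did not overlap, and the level fell by 0.56 on the log2 scale (SE 0.0574, adjusted p = 8.83e-05).

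ATP6V0D1 encodes the subunit at the foot of the central stalk, where the ring meets the V1 shaft. It had 49.3 and 47.0 CPM in shNC and 67.5 and 73.6 in shELOVL5, again without overlap (log2 fold change 0.55, SE 0.0835, adjusted p = 0.00111). ATP6V0E1, a small membrane subunit of V0, fell most of all 39 genes. Its levels were 42.0 and 48.2 CPM in shNC and 18.9 and 17.7 in shELOVL5, a 2.46-fold fall (log2 fold change -1.30, SE 0.115, adjusted p = 3.19e-05). The distance between the groups exceeded the distance between the libraries of 1 group, which was 0.20 in shNC and 0.10 in shELOVL5 on the log2 scale. These rises and falls nearly cancelled in the sum over the 4 genes, which was 424 and 423 CPM in shNC and 416 and 428 in shELOVL5. The 4 calls held in every fit that left out a library.

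Of the 8 V1 genes, 2 rose and 1 fell. ATP6V1H encodes subunit H, which sits where V1 joins V0 and regulates ATP hydrolysis, and its gene lies on chromosome 8 (53715557 to 53843558, minus strand, GRCh38). Its levels were 57.7 and 60.1 CPM in shNC and 25.3 and 23.6 in shELOVL5, a 2.41-fold fall with no overlap (log2 fold change -1.27, SE 0.0956, adjusted p = 1.10e-05). ATP6V1G1, a subunit of the peripheral stalks that hold V1 still against the turning ring, moved from 70.3 and 73.5 CPM to 97.3 and 106. It rose 1.42-fold (log2 fold change 0.50, SE 0.0700, adjusted p = 0.000652). ATP6V1F, a subunit of the central shaft, had 122 and 114 CPM in shNC and 138 and 141 in shELOVL5. Its rise was small beside those of the other called subunits (log2 fold change 0.24, SE 0.0579, adjusted p = 0.0139). The ATP6V1F call was lost without shNC replicate 2 (adjusted p = 0.0831), without shELOVL5 replicate 1 (0.0784), without shELOVL5 replicate 2 (0.101) and with no filter on low counts (0.0516).

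The other 5 V1 genes did not pass the threshold. They include both subunits of the catalytic head, where ATP is bound and split. ATP6V1A, the catalytic subunit, had a log2 fold change of 0.02 (adjusted p = 0.886) with overlapping groups. ATP6V1B2, the other head subunit and the V1 gene with the most counts, had 170 and 185 CPM in shNC and 194 and 192 in shELOVL5. Its groups did not overlap, yet the difference of 0.12 did not pass (adjusted p = 0.145). The log2 fold changes of ATP6V1C1, ATP6V1D and ATP6V1E1, which belong to the stalks and the shaft, were 0.07, 0.16 and -0.04 (adjusted p from 0.260 to 0.743).

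Dividing CPM by the length in kilobases of the main GENCODE 29 transcript allows levels to be compared between genes. In shNC the order ran from ATP6V1F at 168 CPM per kilobase, ATP6V0C at 146 and ATP6V0B at 123 down to ATP6V1A at 17.1 and ATP6V1C1 at 16.2. ATP6V0E1 (31.5) and ATP6V1H (29.3) stood 8th and 9th of the 14 genes, in a band with ATP6AP1, ATP6V0D1, ATP6AP2 and ATP6V1D between 26.2 and 35.3. In shELOVL5 they were at 12.8 and 12.2 and took the last places, below ATP6V1C1 (16.7 and 17.2 in its libraries) and ATP6V1A (18.4 and 16.5). Their highest libraries, at 13.2 and 12.6, did not reach the lowest of those neighbours. ATP6V0B moved from 123 to 83.2 and was passed by ATP6V1G1, which moved from 66.6 to 94.2. One transcript length was used for each gene, so a change of isoform would alter these levels.

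**Figure D2:**
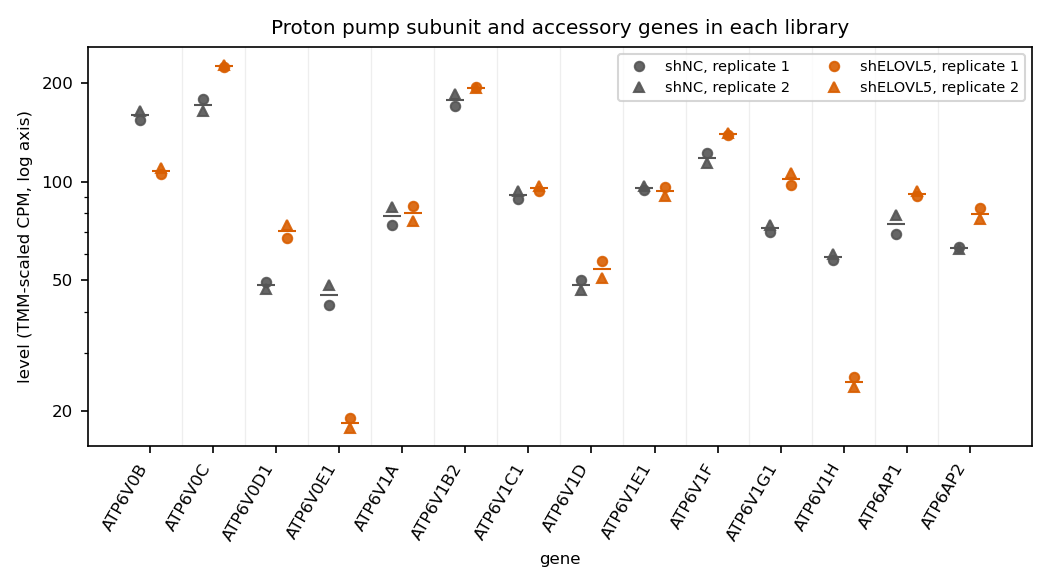
Level (TMM-scaled CPM, log axis) of the 14 pump and accessory genes in each of the 4 libraries, with a short line at the mean of each group. The shELOVL5 points of ATP6V0E1 (18.9 and 17.7) and ATP6V1H (25.3 and 23.6) are the lowest of the plot, and those of ATP6V0B lie under and those of ATP6V0C over their shNC points.

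Both accessory genes rose. ATP6AP1, a glycoprotein that helps to assemble the pump and is part of it, had 69.3 and 78.9 CPM in shNC and 90.3 and 93.4 in shELOVL5 (log2 fold change 0.31, SE 0.0766, adjusted p = 0.0165). ATP6AP2, also known as the prorenin receptor, had 63.3 and 62.4 CPM in shNC and 82.8 and 76.6 in shELOVL5 (log2 fold change 0.34, SE 0.0739, adjusted p = 0.00837). In neither gene did the groups overlap. The ATP6AP1 call was lost without shNC replicate 1 (adjusted p = 0.0856), shELOVL5 replicate 1 (0.0794) or shELOVL5 replicate 2 (0.120) and with no filter on low counts (0.0727). That of ATP6AP2 was lost without shELOVL5 replicate 1 (0.102).

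LAMP1 and LAMP2 encode the heavily glycosylated proteins that make up much of the lysosomal membrane. LAMP1 had 156 and 166 CPM in shNC and 200.0 and 199 in shELOVL5, a 1.24-fold rise (log2 fold change 0.31, SE 0.0494, adjusted p = 0.00142). LAMP2 had 157 and 141 CPM in shNC and 182 and 181 in shELOVL5, a 1.22-fold rise (log2 fold change 0.28, SE 0.0590, adjusted p = 0.00694). Both genes showed all shELOVL5 values above all shNC values, and for LAMP2 the adjusted p was 0.0629 without shELOVL5 replicate 1. MCOLN1, the lysosomal calcium channel TRPML1, was at 41.7 and 44.3 CPM in shNC and 38.3 and 46.2 in shELOVL5. The shELOVL5 values of MCOLN1 enclosed the shNC values (log2 fold change -0.03, adjusted p = 0.904).

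Among the hydrolases, 3 of 5 tested proteases rose. CTSA, a carboxypeptidase that also protects the glycosidases beta-galactosidase and neuraminidase 1, had 69.8 and 76.1 CPM in shNC and 107 and 100.2 in shELOVL5 (log2 fold change 0.51, SE 0.0708, adjusted p = 0.000656). TPP1, which removes tripeptides from the ends of proteins, had 64.4 and 67.6 CPM in shNC and 96.7 and 89.0 in shELOVL5 (log2 fold change 0.49, SE 0.0725, adjusted p = 0.000908). The groups lay well apart in both, with rises of 1.42-fold and 1.41-fold. CTSD, the main aspartic protease of the lysosome, had 213 and 221 CPM in shNC and 244 and 247 in shELOVL5. Its rise was 1.13-fold (log2 fold change 0.18, SE 0.0444, adjusted p = 0.0180). The CTSD call was lost without shNC replicate 1 (0.0730), shELOVL5 replicate 1 (0.104) or shELOVL5 replicate 2 (0.121) and with no filter on low counts (0.0605).

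The cysteine proteases did not pass the threshold. CTSB, a broad endopeptidase, had a log2 fold change of 0.05 with overlapping groups (adjusted p = 0.624). CTSC, which activates the granzymes of cytotoxic lymphocytes, had 73.6 and 77.2 CPM in shNC and 65.6 and 66.5 in shELOVL5. Its groups did not overlap, but the difference of -0.19 gave an adjusted p of 0.0880.

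Of the 6 genes for sugar and lipid breakdown, only LIPA rose. LIPA, the acid lipase that frees fatty acids and cholesterol from lipids delivered to the lysosome, had 68.7 and 57.0 CPM in shNC and 76.6 and 83.8 in shELOVL5 (log2 fold change 0.35, SE 0.0958, adjusted p = 0.0272). Its shNC libraries were 0.27 apart on the log2 scale, and the call was lost without shNC replicate 2 (0.139), shELOVL5 replicate 1 (0.0730) or shELOVL5 replicate 2 (0.191), with no filter on low counts (0.112) and with robust=FALSE (0.0537). PSAP, the precursor of the saposins that present sphingolipids to their hydrolases, had the most counts of all 41 genes. Its levels were 675 and 711 CPM in shNC and 742 and 731 in shELOVL5. The groups did not overlap, and the difference of 0.09 did not pass (adjusted p = 0.138), although it did without shNC replicate 2 (0.0486) and with scaling by total counts (0.0419). HEXA and GUSB, which cleave hexosamines and glucuronic acid from glycans and glycolipids, had log2 fold changes of 0.11 and 0.19. Those of GAA, which degrades glycogen, and GLA, which degrades globosides, were -0.18 and -0.16, and none of the 4 passed (adjusted p from 0.121 to 0.471).

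Per kilobase of transcript, PSAP (241 CPM per kilobase in shNC and 256 in shELOVL5) and CTSD (102 and 116) led the hydrolases in both groups. CTSA moved from 33.9 to 48.2 and from below CTSC (39.2 in shNC, 34.4 in shELOVL5) to above it. Summed levels of the proteases were 533 and 562 CPM in shNC and 636 and 619 in shELOVL5. Those of the sugar and lipid genes, of which PSAP is the greater part, were 987 and 1011 CPM in shNC and 1068 and 1059 in shELOVL5. Both sums were higher in each shELOVL5 library than in each shNC library, and were not tested.

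**Figure D3:**
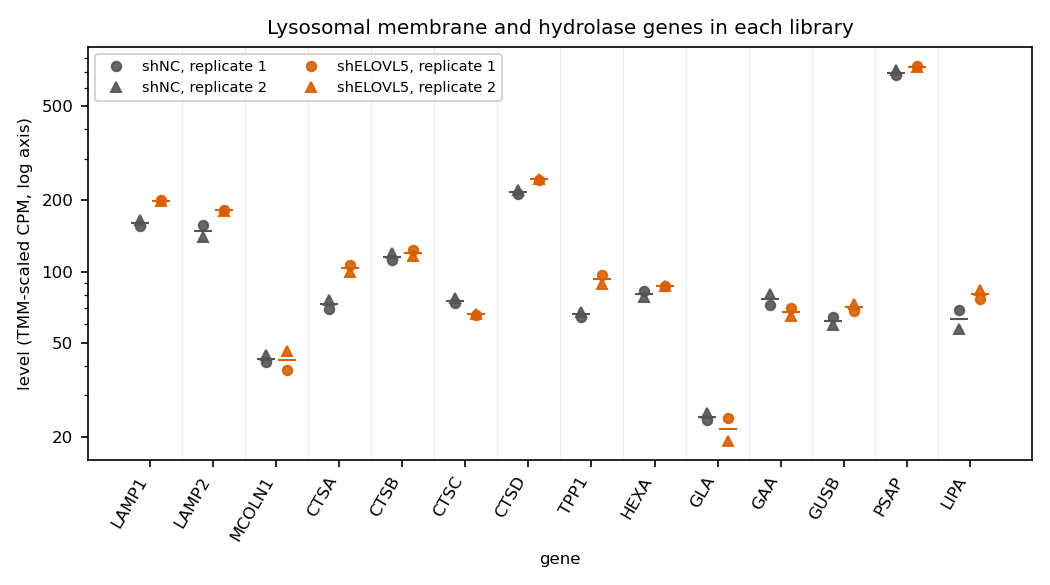
Level (TMM-scaled CPM, log axis) of the 3 membrane and 11 tested hydrolase genes in each of the 4 libraries, with a short line at the mean of each group. LAMP1, LAMP2, CTSA and TPP1 show their shELOVL5 points above their shNC points, while the points of MCOLN1, CTSB and GLA overlap.

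The 2 transcription factors were higher in both shELOVL5 libraries without passing the threshold. TFE3 had 45.3 and 56.3 CPM in shNC and 59.9 and 65.2 in shELOVL5 (log2 fold change 0.30, SE 0.108, adjusted p = 0.0813). The shNC libraries of TFE3 lay 0.31 apart on the log2 scale, as far as the difference between the groups. It passed without shNC replicate 2 (adjusted p = 0.0121) and under DESeq2 (0.0388). TFEB, the least expressed of the 39 genes with 124 to 203 counts, had 7.30 and 9.41 CPM in shNC and 11.6 and 10.5 in shELOVL5. Its difference of 0.40 had an SE of 0.213 (adjusted p = 0.221). These are RNA levels, and the activity of both factors is set largely by where the protein is in the cell, which was not measured.

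The 9 listed autophagy genes carried no rise. SQSTM1, the receptor p62 that binds ubiquitin on cargo and LC3 on the forming membrane, had 102 and 101 CPM in shNC and 78.2 and 70.0 in shELOVL5. It fell 1.37-fold without overlap of the groups (log2 fold change -0.46, SE 0.0712, adjusted p = 0.00127). MAP1LC3B, GABARAP and GABARAPL2 are members of the ATG8 family, which is coupled to lipid on the autophagosome. GABARAP, the one with the most counts, had 157 and 151 CPM in shNC and 169 and 173 in shELOVL5 (log2 fold change 0.15, SE 0.0498, adjusted p = 0.0524). That is just short of the threshold, and GABARAP passed with scaling by total counts (0.0220) and with a filter of 1 CPM (0.0447). MAP1LC3B was at -0.11 and GABARAPL2 at 0.14 (adjusted p = 0.266 and 0.342), the latter with overlapping groups.

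In the core machinery, 2 of 5 genes fell. WIPI2, which binds phosphatidylinositol 3-phosphate on the forming membrane and recruits the LC3 conjugation complex, had 125 and 130 CPM in shNC and 99.0 and 95.6 in shELOVL5 (log2 fold change -0.39, SE 0.0577, adjusted p = 0.000898). BECN1, part of the lipid kinase complex that makes this phosphoinositide, had 106 and 104 CPM in shNC and 84.8 and 91.1 in shELOVL5 (log2 fold change -0.26, SE 0.0633, adjusted p = 0.0164). Both were lower in each shELOVL5 library than in each shNC library. The BECN1 call was lost without shNC replicate 1 (0.0519) and without shELOVL5 replicate 1 (0.128).

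The remaining machinery genes did not pass. ULK1, the kinase that starts autophagy, had 138 and 154 CPM in shNC and 131 and 131 in shELOVL5 (log2 fold change -0.15, adjusted p = 0.110), and it passed without shNC replicate 1 (0.0250). ATG7, the activating enzyme of LC3 conjugation, had 51.1 and 54.5 CPM in shNC and 44.9 and 42.9 in shELOVL5 (log2 fold change -0.26, adjusted p = 0.0591), and it passed under DESeq2 (0.0421). ATG5, a partner in the conjugation complex, was at 0.07 (adjusted p = 0.594). Summed over the 5 machinery genes the level was 472 and 495 CPM in shNC and 416 and 415 in shELOVL5. The 4 genes of the receptor and ATG8 family summed to 422 and 430 CPM in shNC and 423 and 405 in shELOVL5, with overlap.

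**Figure D4:**
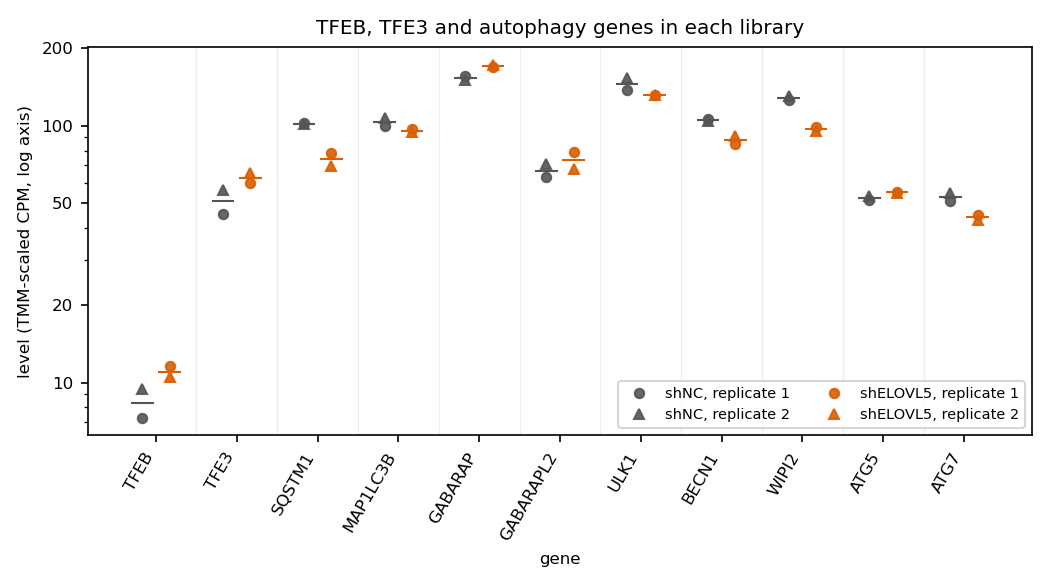
Level (TMM-scaled CPM, log axis) of TFEB, TFE3 and the 9 autophagy genes in each of the 4 libraries, with a short line at the mean of each group. SQSTM1, BECN1 and WIPI2 show both shELOVL5 points under both shNC points, while the shNC points of TFEB and TFE3 lie far apart from each other.

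Exons of 17 of the 41 genes share bases with another gene in GENCODE 29, and since the use of strand in counting was not given in the sources used here, reads there could be counted for either gene. For 4 of them, SQSTM1, ATG7, CTSA and MCOLN1, the other gene passed the threshold, whereas ATG7 and MCOLN1 themselves did not. SQSTM1 shares 1582 bases, 20.7% of its exon length, with MRNIP on the opposite strand, which fell too (log2 fold change -0.53, adjusted p = 0.0119). ATG7 shares 1596 bases (18.1%) with VGLL4 on the opposite strand, which fell (-0.46, adjusted p = 0.000233). CTSA shares 200 bases (3.42%) with PLTP on the opposite strand, which fell (-1.10, adjusted p = 0.0271) while CTSA rose. MCOLN1 shares 6 bases with PNPLA6. Some overlaps lie on the same strand, where counting by strand would not separate the genes. ATP6V0C shares 862 bases (57.5%) with AC093525.2 and GABARAP 691 (30.5%) with AC120057.2, and these partners had 0 counts in all libraries. CTSD shares 1304 bases (41.7%) with AC068580.4, which had 13 to 41 counts and did not pass (adjusted p = 0.268). The part of these overlaps in the fold changes of the listed genes was not tested.

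A wider list of 170 further genes was chosen by function, also with earlier results of these data known, and 157 of them were tested. It covers the same roles and further ones, namely pump assembly, hydrolase sorting, nutrient sensing and autophagosome fusion. Of these 27 rose (17.2%) and 13 fell (8.28%), with a median log2 fold change of 0.07. The share that rose was above the 9.22% of all tested genes, and the share that fell was below their 11.2%. Among all genes reaching 20 CPM the shares were 14.2% and 18.4%. The wider list was not limited to that level, so the latter pair is not a like comparison. The number of rises was not stable, at 8 without shELOVL5 replicate 2, 12 without shELOVL5 replicate 1, 15 with no filter on low counts and 6 against a fold change of 1.2. The falls numbered 6 without shELOVL5 replicate 1 and 6 against a fold change of 1.2. The share of all tested genes called in these other fits is not given, so their counts cannot be set beside a background. TCACGTGA was in the window of 12 of the 134 wider-list genes that have one (8.96%).

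In the pump, ATP6V0A1, the large V0 subunit that lines the proton path, rose from 56.5 and 55.3 CPM to 80.5 and 81.0 (log2 fold change 0.53, SE 0.0717, adjusted p = 0.000542). It was the only change among 5 further V0 genes tested, and neither of 2 further V1 genes passed. Of 7 assembly genes, ROGDI rose (0.47, adjusted p = 0.00757) and DMXL2 fell (-0.33, adjusted p = 0.0265). Both belong to the complex that brings V1 and V0 together.

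Of 24 further membrane genes, 6 rose (25%) and 1 fell (4.17%), beside 9.22% and 11.2% of all tested genes. SCARB2, the receptor that carries glucocerebrosidase to the lysosome, rose from 65.2 and 65.4 CPM to 106 and 99.5 (log2 fold change 0.66, SE 0.0673, adjusted p = 8.83e-05). SLC17A5, the exporter of sialic acid, rose by 0.75 on that scale (adjusted p = 0.0119), and LAPTM4B, a membrane protein of late endosomes and lysosomes, fell by 0.22 on the log2 scale (adjusted p = 0.0122). Among 13 further proteases, the asparaginyl endopeptidase LGMN rose (0.31, adjusted p = 0.0250) and CTSV, a relative of CTSL, fell (-0.84, adjusted p = 0.00769).

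Sugar and lipid breakdown had 4 rises (14.3%) and 5 falls (17.9%) among 28 tested genes. The shares of all tested genes were 9.22% and 11.2%, and those of genes reaching 20 CPM were 14.2% and 18.4%. Both shares of this role lay above those of all tested genes and near those of genes reaching 20 CPM. The role was not limited to that level, so the latter pair is not a like comparison. SMPD1, acid sphingomyelinase, rose most of the wider list, from 17.9 and 16.1 CPM to 40.1 and 41.4 (2.39-fold, log2 fold change 1.26, SE 0.113, adjusted p = 3.38e-05). IDS, the iduronate sulfatase of heparan and dermatan sulfate breakdown, fell from 119.5 and 122 CPM to 65.4 and 67.8 (log2 fold change -0.86, SE 0.0617, adjusted p = 7.55e-06). PPT1, which strips palmitate from proteins, fell from 143 and 147 CPM to 109 and 106 (-0.44, adjusted p = 0.000329). In each of these 3 genes the groups were far apart beside the spread within them. Of 9 genes that sort hydrolases to the lysosome, only the receptor SORT1 rose (0.22, adjusted p = 0.0140).

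Among 13 tested genes of nutrient sensing, 3 rose (23.1%, beside 9.22% of all tested genes) and none fell. RRAGD, one of the Rag GTPases that bring mTORC1 to the lysosome, rose from 54.9 and 47.9 CPM to 96.7 and 96.6 (1.88-fold, log2 fold change 0.91, SE 0.0807, adjusted p = 3.14e-05). RRAGB, another Rag GTPase, rose by 0.85 on the log2 scale (adjusted p = 0.0113), and LAMTOR1, which anchors the Rags to the membrane, by 0.26 (adjusted p = 0.0468). MITF and TFEC, relatives of TFEB, were not tested because of low counts. MITF was at 0 counts in shNC and at 2 and 0 in shELOVL5.

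Of 15 further receptors and ATG8 genes, 4 rose (26.7%) and 2 fell (13.3%), beside 9.22% and 11.2% of all tested genes. NCOA4, the receptor that delivers ferritin, fell from 230 and 224 CPM to 135 and 141 (log2 fold change -0.72, SE 0.0486, adjusted p = 4.82e-06). BNIP3, a receptor for mitochondria, rose by 0.58 (adjusted p = 0.00107), and CALCOCO2, which recognises bacteria and damaged membranes, fell by 0.25, both on the log2 scale (adjusted p = 0.00869). Of 28 machinery genes, 5 rose (17.9%) and 2 fell (7.14%). ATG9A, the membrane protein whose vesicles seed the autophagosome, rose by 0.77 on the log2 scale (adjusted p = 0.000384), and ATG4D, a protease of ATG8 proteins, by 0.37 (adjusted p = 0.00642). RB1CC1, the scaffold of the ULK1 complex, fell by 0.49 on that scale (adjusted p = 0.000341). Of 13 genes for fusion with the lysosome, RAB7A, the GTPase of late endosomes and lysosomes, fell from 210.2 and 211 CPM to 147 and 146 (-0.52, SE 0.0462, adjusted p = 3.10e-05), and the tether EPG5 rose (0.34, adjusted p = 0.0354).

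**Figure D5:**
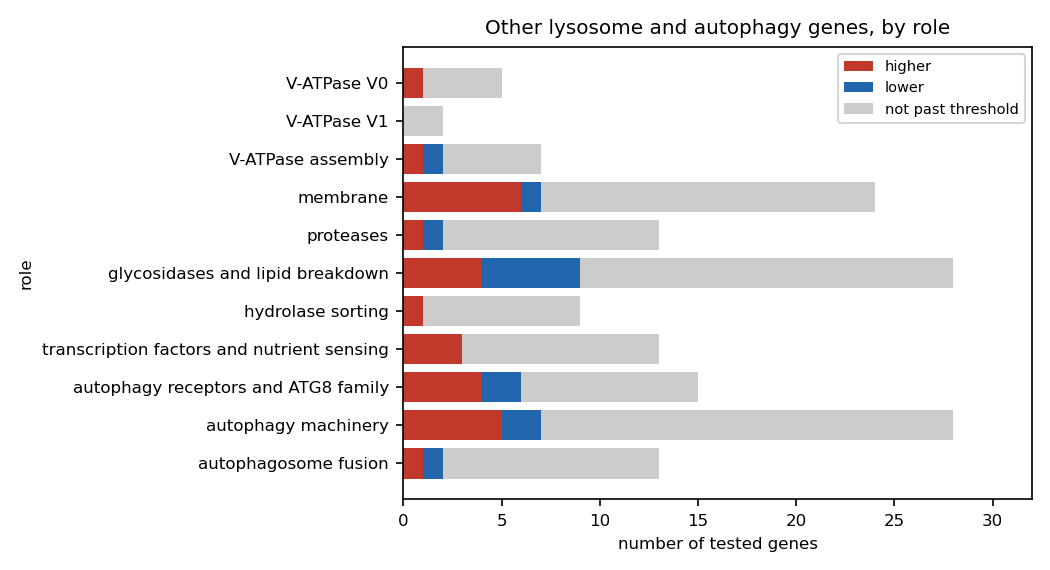
Number of tested genes of the wider list in each role (horizontal axis), divided into those that rose, those that fell and those not past an adjusted p of 0.05. Membrane genes show 6 rises and 1 fall of 24, and genes for sugar and lipid breakdown 4 rises and 5 falls of 28.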

How the data were processed

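The deposited table holds raw counts of reads for each gene in 4 libraries, as whole numbers. Per the submitters' processing notes, HISAT2 2.2.0, StringTie and the build hg38 were used. The annotation and the step that made the counts were not given in the sources used here. Per the labels' protocols, RNA came from TRIzol extraction and a TruSeq kit. Identifiers were given symbols, coordinates and transcript lengths from GENCODE 29.

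Counts were fitted with edgeR 4.0.16 in R 4.3.3 (filterByExpr with a minimum count of 10, TMM, glmQLFit with robust=TRUE, glmQLFTest, two-sided, group as the only term), with Benjamini-Hochberg adjustment over all tested genes and a threshold of 0.05. The fit was tested on simulated counts. The 13 alternatives included DESeq2 1.42.0 and voom in limma 3.58.1. By rule, values per library are given for listed genes past the threshold and for the one with the highest mean CPM in each role, and up to 3 called genes per role of the wider list are named, by smallest p. Values per library of MCOLN1, CTSC, TFEB and ATG7, and of those wider-list genes that have them, were added after the results were seen. The genes and lists were chosen with earlier results of these data known. Each library was counted as 1 sample. Libraries of 1 group differed beyond sampling noise (chi-square per degree of freedom 5.93 and 5.51), which does not show that they are separate cultures.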

Additional observations from a re-analysis of the deposited data

How the results depend on the processing

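No called gene of the list changed direction in any of 13 alternatives, and 11 of the 18 called genes (6 that rose, 5 that fell) passed in every one except the test against a fold change of 1.2, where 8 of the 18 passed. Against the main counts of 12 rises and 6 falls, that test gave 4 rises and 4 falls, with 6 rises and 6 falls in the wider list (27 and 13 in the main fit). With no filter on low counts the wider list had 15 rises. For none of the alternatives is the share of all tested genes called given here. Leaving out each library in turn gave 6 to 12 rises and 5 to 6 falls among the listed genes, and 8 to 21 rises and 6 to 12 falls in the wider list, with the fewest listed rises without shELOVL5 replicate 1 and the fewest of the wider list without shELOVL5 replicate 2. The median log2 fold change of the listed genes lay between 0.05 (without shNC replicate 1) and 0.15 (total counts), and scaling by total counts moved the median of all genes to 0.04. Libraries with the same replicate number showed no shared deviation (correlation of same-numbered deviations -0.0187 over 12247 genes). With 1 such comparison this cannot decide whether they were paired. A fit with a replicate block gave 13 rises, adding TFE3 (adjusted p = 0.0376), and 6 falls. Depth limits TFEB, CTSZ and CTSL, whose counts were low or 0.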
